A study of Mus musculus with 56 samples.

Results

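The day of birth was compared with late gestation in medullary thymic epithelial cells (mTECs). The comparison rested on the 6 samples labelled mTEC and D0 or D-2, 3 of each, out of 56 in the series and 28 of mTECs. The D-2 samples were taken on gestation day 18 and the D0 samples on the day of parturition, from mothers whose pups were taken away at birth. All of these females were B6.SJL mice carrying the CD45.1 allele, mated with BALB/cJ males. Each replicate was 1 mouse, and mTECs were sorted from digested thymic stroma as EpCAM+CD45-UEA1+ cells, so the gate holds mTECs of all maturation stages together. RNA was selected for poly-A tails and sequenced, and levels are given as FPKM, a fragment count scaled by transcript length and by the fragments of the library.

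mTECs line the thymic medulla, where they display self-antigens of other tissues to T cells that have passed through the cortex. Aire and Fezf2 drive this promiscuous expression, NF-kB signals from TNF family receptors drive the differentiation of the cells, and chemokines such as Ccl21a draw in positively selected thymocytes. The thymus shrinks in pregnancy under progesterone and other steroids and regrows after birth, and D0 against D-2 asks which mTEC genes change first around that turn.

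Totals of the 6 libraries ran from 9991569 to 48195568 expected counts. D0 replicate 2 stood apart from the others. Its correlation with the other 5, on log2 values, was 0.783 to 0.819, while other pairs reached 0.945. That highest value joined D0 replicate 3 and D-2 replicate 3, so the most alike libraries came from different groups. In D0 replicate 2, 50 of 4706 genes with a median of at least 20 FPKM were listed at 0, against 2 to 11 in the others. This library had 13710 genes with at least 10 counts, against 15841 to 19592. An estimate of sample quality weights, in which a noisier library counts for less, gave it 0.234 and the others 0.734 to 2.91. The next lowest weight, 0.734, was that of D-2 replicate 3, which also had the largest total. Results are therefore given with and without D0 replicate 2. The labelled cell type was clear in all 6 samples: *Krt5* stood at 1785 to 3059 FPKM, *Ccl21a* at 7515 to 13750 and *Fezf2* at 108 to 148, and no gene of the 10-gene mTEC marker list or the 7-gene pan-TEC list was at 0 in any of them.

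No single gene passed the test. Of 17743 genes tested with limma-voom, 0 (0%) reached a fold-change of 2 with an adjusted p of at most 0.01, and 0 (0%) reached an adjusted p of 0.05, the lowest being 0.21. At an unadjusted p under 0.05 there were 1136 genes, 242 higher and 894 lower at D0, and without D0 replicate 2 there were 641, 293 higher and 348 lower. edgeR called 0 genes and had 547 at an unadjusted p under 0.05, whereas DESeq2 called 23 at an adjusted p of 0.05, 7 higher and 16 lower. All 3 D0 values lay above all 3 D-2 values for 898 genes, 5.06% of those tested, and below them for 1253, or 7.06%. The median log2 fold change over all genes was -0.10, and 0.03 without D0 replicate 2.

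With sample quality weights, 263 genes passed an adjusted p of 0.05, of which 50 rose (0.282% of the genes tested) and 213 fell (1.2%). These calls rested on few libraries. With weights but without D0 replicate 2, 219 genes passed, and 197 of them were among the 263 (74.9% of the first list and 90% of the second). Without D0 replicate 1 or without D0 replicate 3 the weighted fit called 0 genes, with 1085 and 1007 at an unadjusted p under 0.05, and without D-2 replicate 1, D-2 replicate 2 or D-2 replicate 3 it called 56, 195 or 315. In the text that follows, a gene is said to rise or fall only if it passed with these weights, and none of them passed in the limma-voom fit without weights over all samples. This departs from the plan, which tied these words and the calls within lists to the fit without weights, where 0 genes passed. Of 62 genes followed over all settings, 6 passed without weights with DESeq2, among them *Gm20431*, *Ubn2*, *Cdc42ep3*, *Csnk1e* and *Col27a1*. *Gm7831* passed with limma-trend on log2(FPKM + 0.5), and *Srsf11* in the unweighted fit without D0 replicate 2. In an unweighted fit of only the D0 and D-2 samples without that library, chosen after seeing the data, 27 passed. Over all genes tested, 57.3% had a negative and 42.7% a positive log2 fold change, and the counts of list members that follow stand beside these shares and the shares called or without overlap above. The adjusted p of a gene over the 25 alternative settings is given as a range.

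The lower side was the larger one with weights. It held the mitochondrial ribosomal RNA genes *mt-Rnr1*, at 1995, 2029 and 1053 FPKM at D-2 and 618, 1146 and 548 at D0, and *mt-Rnr2*, which fell by 1.82 on the log2 scale with weights. It also held *Gm42418*, a noncoding gene at a ribosomal RNA repeat, at 17510, 18650 and 4797 FPKM against 7959, 11780 and 2461. Mitochondrial genes took 3.39%, 3.81% and 2.75% of the counts at D-2 and 1.90%, 3.20% and 2.78% at D0, with overlap. The part of this RNA composition in the falls below was not tested. The 12 lower genes that the naming rule chose were *Ubn2*, *Cdc42ep3*, *Gm7831*, *Csnk1e*, *Col27a1*, *Pura*, *Klf9*, *Eif3j2*, *Eif2ak2*, *Upf3b*, *Ankrd11* and *Fst*. They had no overlap between the groups by the rule, missed the threshold without weights, and all fell with them. *Upf3b*, which serves nonsense-mediated mRNA decay and lies on chromosome X from 37091678 to 37110322 in GRCm38, was at 166, 150 and 131 FPKM in the D-2 samples. At D0 it was at 47.3, 95.1 and 42.6 FPKM. All D0 values were below all D-2 values, and D0 replicate 2 was the nearest to them. The log2 fold change was -1.31 ± 0.29 (SE) without weights, adjusted p = 0.26, and -1.68 ± 0.20 with them, adjusted p = 0.00037 (range 0.00033 to 0.98).

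*Ankrd11*, a chromatin regulator, was at 145, 127 and 92.4 FPKM at D-2 and at 49.4, 81.1 and 52.6 at D0. Its log2 fold change was -0.998 ± 0.22, and -1.30 ± 0.15 with weights. *Ubn2*, which belongs to a histone H3.3 chaperone complex, held 23.2, 24.4 and 17.0 FPKM at D-2 and 12.03, 8.83 and 8.04 at D0. It had the smallest p of all genes, with a log2 fold change of -1.19 ± 0.20 and an adjusted p of 0.21 without weights. The kinase gene *Csnk1e*, whose product phosphorylates clock proteins, went from 81.2, 54.8 and 67.2 FPKM to 29.5, 53.4 and 28.7, where the highest D0 value came close to the lowest D-2 value. *Eif2ak2*, which encodes the double-stranded RNA sensor PKR, had the narrowest groups, 52.8, 49.8 and 45.5 FPKM against 28.7, 29.3 and 32.8, and a log2 fold change of -0.80 ± 0.17.

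*Cdc42ep3*, an effector of the GTPase Cdc42, stood at 75.4, 67.0 and 62.7 FPKM at D-2 and at 30.5, 36.2 and 25.0 at D0, a clear gap in every pair of samples. *Fst*, which encodes the activin and BMP antagonist follistatin, stood at 98.2, 88.5 and 120 FPKM and then at 44.8, 60.8 and 53.0. *Gm7831*, annotated as a processed pseudogene, was at 4.06, 5.93 and 5.49 FPKM at D-2 and at 0 in all 3 D0 samples, at least 33.1-fold lower against a floor of 3 counts over the D0 group. Reads of such a copy can also fit its parent gene, so its count is uncertain. *Col27a1* (a fibrillar collagen), *Pura* (a nucleic acid binding protein) and *Eif3j2* (a translation initiation factor) had log2 fold changes of -1.19, -1.26 and -1.24.

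Some further genes are named here after their values were seen. *Srsf11*, a splicing factor on chromosome 3 from 158010473 to 158036639, was at 291, 313 and 282 FPKM at D-2, and at 98.4, 291 and 85.5 at D0. D0 replicate 2 thus sat at the D-2 level while the other D0 libraries were far below it. The log2 fold change was -1.01 ± 0.24 over all samples. Without D0 replicate 2 it was -1.40, adjusted p = 0.026, which made it the only gene called in the unweighted fit without that library (range over all settings 2.1e-05 to 0.98).

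*Rbm25*, another splicing factor, showed 319, 328 and 286 FPKM at D-2 against 104, 237 and 126 at D0, and *Luc7l3*, a U1 snRNP-associated protein, showed 282, 294 and 300 against 122, 299 and 115. *Son*, a scaffold of nuclear speckles, had 408, 318 and 233 FPKM against 150, 220 and 133. *Malat1*, a long noncoding RNA kept in the nucleus, spread widely, from 849 to 3588 FPKM at D-2 and from 334 to 1678 at D0. In each of these genes D0 replicate 2 had the highest D0 value. In a fit of only the D0 and D-2 samples without that library, chosen after seeing the data, 69 genes passed an adjusted p of 0.05 (12 higher and 57 lower), and *Rbm25*, *Upf3b* and *Srsf11* were those past a fold-change of 2 and an adjusted p of 0.01. The 213 genes that fell had a median transcript length of 3038 bases and the 50 that rose one of 2657, against 1988 over all genes tested. The part of transcript length in the calls was not tested.

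**Figure D1:**
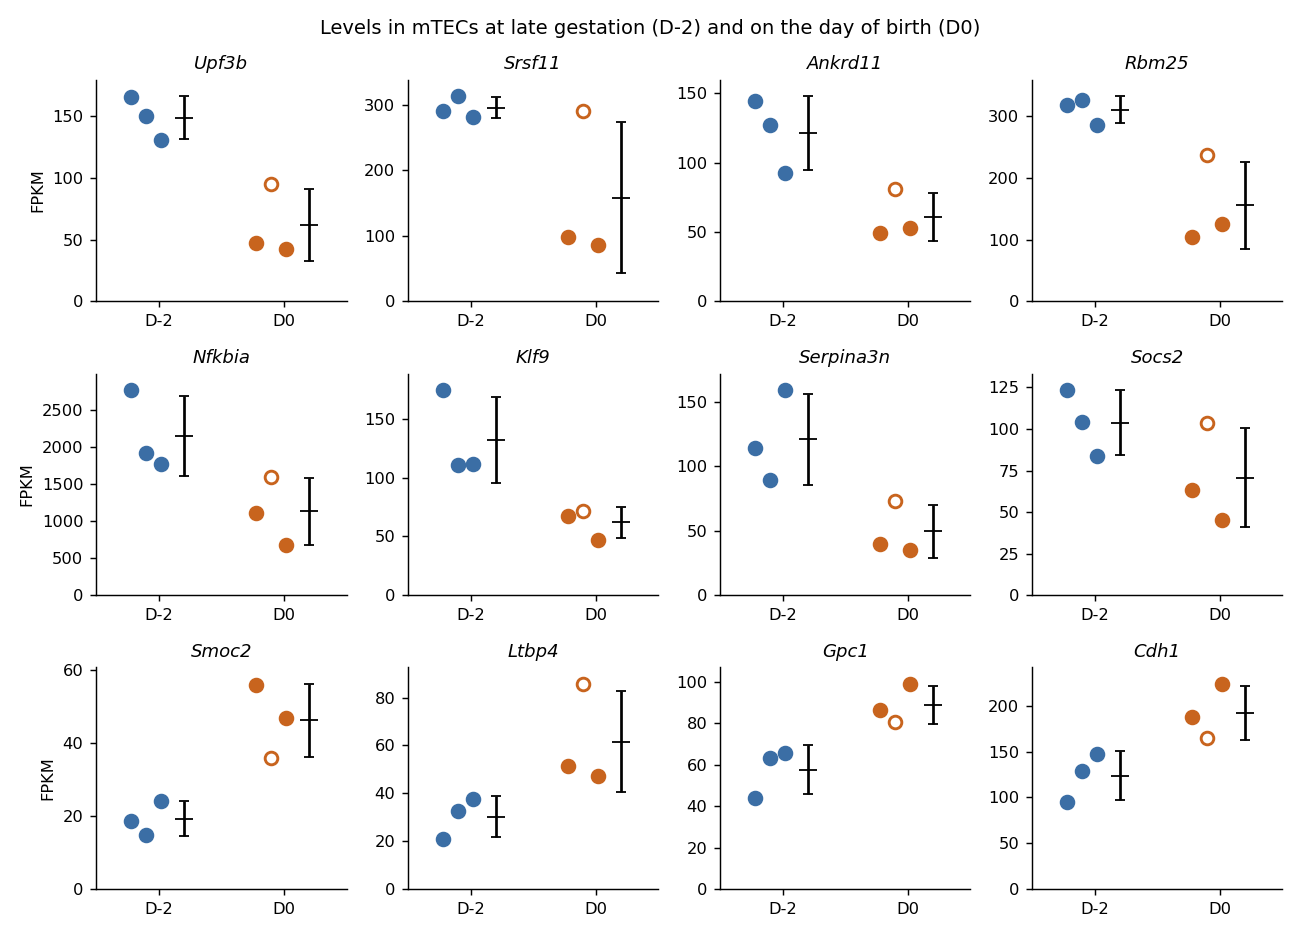
Levels in FPKM (y axes, from 0) of 12 genes in the 3 D-2 samples (blue) and the 3 D0 samples (orange), where the open circle is D0 replicate 2 and the bars are the mean ± SD of each group. In the upper row the D0 samples lie below the D-2 samples except for *Srsf11*, whose open circle at 291 lies among the D-2 values, and in the lower row all D0 samples lie above them.

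*Nfkbia* had the larger fall of the 2 genes of the NF-kB pathway that passed with weights. In the list of 18 NF-kB and TNF receptor pathway genes, 13 had a negative log2 fold change (57.3% of all genes did), 4 had all D0 values below all D-2 values (7.06% of all genes), 0 had them above, and 2 fell, *Nfkbia* and *Birc3*. The list median was -0.27, and -0.14 without D0 replicate 2. *Nfkbia* encodes the inhibitor IkBa, which holds NF-kB in the cytoplasm and is itself induced by it. It was at 2774, 1928 and 1767 FPKM at D-2 and at 1113, 1598 and 684 at D0, without overlap. The log2 fold change was -1.08 ± 0.30, adjusted p = 0.38, and -1.54 ± 0.23 with weights, adjusted p = 0.0012 (range 0.0012 to 1).

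*Birc3*, which encodes a ubiquitin ligase of TNF receptor signalling, was at 264, 184 and 164 FPKM at D-2 and at 133, 144 and 93.9 at D0. It passed with weights over all samples but not without D0 replicate 2, where its adjusted p was 0.074 (range over all settings 0.030 to 1). *Nfkb1*, the gene of the p50 subunit, held 107, 93.0 and 94.5 FPKM against 79.0, 56.7 and 76.1 and did not pass. *Ltb*, the lymphotoxin beta gene, lay without overlap as well, at 11.4 ± 5.45 FPKM against 4.40 ± 3.86 (SD, n = 3). The other subunit genes were close: *Relb* stood at 84.5 ± 9.46 and 71.1 ± 10.3, *Nfkb2* at 114 ± 17.8 and 102 ± 24.9, and *Rela* at 27.7 ± 7.38 and 29.3 ± 2.56.

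Of 16 steroid-responsive genes, which glucocorticoid, progesterone or related receptors are known to induce, 14 had a negative log2 fold change, beside 57.3% of all genes, and 4 lay wholly below D-2 (*Greb1*, *Zbtb16*, *Klf9* and *Per1*), beside 7.06% of all genes. *Klf9* and *Zbtb16* fell. The list median was -0.26, and -0.28 without D0 replicate 2, beside -0.10 and 0.03 over all genes. *Klf9*, a transcription factor gene induced by glucocorticoid and progesterone receptors, was at 175, 111 and 112 FPKM at D-2 and at 67.7, 71.8 and 46.9 at D0. Here D0 replicate 2 lay beside replicate 1, and the log2 fold change was -1.10 ± 0.23, adjusted p = 0.26, and -1.41 ± 0.20 with weights, adjusted p = 0.00086 (range 0.00086 to 0.98).

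*Zbtb16*, which encodes the transcription factor PLZF, was low, at 6.73, 4.73 and 5.97 FPKM against 1.22, 3.44 and 1.10. It passed with weights (adjusted p = 0.044) but in no other of the 25 settings, and at 0.081 without D0 replicate 2. *Greb1*, an oestrogen and progesterone receptor cofactor, was at 1.59, 1.89 and 0.69 FPKM against 0.14, 0 and 0.20, and passed in none. Classic glucocorticoid targets stood near each other: *Fkbp5* at 33.0 ± 2.56 and 31.7 ± 6.32 FPKM, *Tsc22d3* at 24.3 ± 4.54 and 27.9 ± 7.02, and *Sgk1* at 55.8 ± 10.3 and 56.4 ± 5.42. Among 14 tested hormone receptor genes, 10 had a negative log2 fold change and none lay wholly below D-2. *Rara* and *Rarb* lay wholly above it, beside 5.06% of all genes. The progesterone receptor gene *Pgr* was at 4.33, 5.12 and 5.48 FPKM at D-2 and at 1.44, 6.17 and 3.27 at D0, with overlap, and the glucocorticoid receptor gene *Nr3c1* ran from 14.7 to 21.6 at D-2 and from 16.8 to 21.6 at D0.

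*Serpina3n*, a secreted protease inhibitor of the acute phase, had the largest fall among the list genes that passed with weights and stood above 10 FPKM at D-2. It stood at 114, 89.6 and 160 FPKM at D-2 and at 39.9, 73.4 and 35.2 at D0, again with replicate 2 as the highest D0 sample and without overlap. The log2 fold change was -1.45 ± 0.32, adjusted p = 0.26, and -1.64 ± 0.26 with weights, adjusted p = 0.0015 (range 0.0015 to 0.99). It was the only gene of the acute-phase list of 17 that fell, though 15 of them had a negative log2 fold change and the list median was -0.51, or -0.33 without D0 replicate 2. *Socs2*, a feedback inhibitor induced by STAT5, was the only one of 11 STAT5 and cytokine feedback genes that fell, with 123, 104 and 84.0 FPKM at D-2 and 63.3, 104 and 45.4 at D0. Its groups overlapped through D0 replicate 2 alone, and its log2 fold change of -0.77 ± 0.26 became -1.16 ± 0.18 with weights, adjusted p = 0.0015 (range 0.0011 to 1). The other genes of that list had a median near 0, -0.07 for the list with all samples and 0.06 without D0 replicate 2, and *Socs3* was at 463 ± 72.6 and 504 ± 108 FPKM.

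Promoters of *Nfkbia*, *Serpina3n* and *Klf9* are shown because these 3 inducible genes carry the falls described above. Each line gives the 250 bases before the RefSeq start on GRCm38.p6, read 5′ to 3′ along the gene. Capitals mark matches to 3 motifs searched on both strands, an NF-kB motif (GGNNTTTCC, reverse GGAAANNCC), a STAT motif (TTCNNNGAA, its own reverse) and a steroid receptor half-site (TGTTCT, reverse AGAACA).
*Nfkbia*, chr12:55492648-55492897, minus strand: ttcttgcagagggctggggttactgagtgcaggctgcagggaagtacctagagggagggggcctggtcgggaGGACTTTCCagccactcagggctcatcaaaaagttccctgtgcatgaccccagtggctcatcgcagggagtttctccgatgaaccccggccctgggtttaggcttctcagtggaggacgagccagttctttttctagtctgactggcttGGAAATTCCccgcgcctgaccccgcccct
*Serpina3n*, chr12:104406458-104406707, plus strand: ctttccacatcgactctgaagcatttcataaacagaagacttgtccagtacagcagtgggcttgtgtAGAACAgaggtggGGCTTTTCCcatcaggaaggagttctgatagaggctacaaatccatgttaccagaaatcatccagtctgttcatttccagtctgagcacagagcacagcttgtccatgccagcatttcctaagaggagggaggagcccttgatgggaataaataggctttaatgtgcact
*Klf9*, chr19:23140976-23141225, plus strand: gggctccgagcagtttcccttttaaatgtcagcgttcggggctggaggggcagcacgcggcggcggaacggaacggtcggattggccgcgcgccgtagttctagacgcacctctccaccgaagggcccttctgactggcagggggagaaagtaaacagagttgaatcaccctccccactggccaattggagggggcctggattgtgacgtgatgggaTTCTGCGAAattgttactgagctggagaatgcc

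*Nfkbia* held 2 NF-kB matches, which began 178 and 29 bases before the start. *Serpina3n* held 1 NF-kB match at 170 bases and 1 half-site at 183 bases, and *Klf9* held 1 STAT match at 33 bases. Among 32851 RefSeq promoter windows of this length, 4.93% held the NF-kB motif, 7.02% the STAT motif and 16.1% the half-site. These are matches of letters only and do not show that a factor was bound.

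The higher side was smaller. The naming rule chose *Gm20431*, *Ighm*, *Gm18180*, *Smoc2*, *Ltbp4*, *Gpc1*, *Gm43802*, *Cdh1*, *Eef1g*, ENSMUSG00000099703.6, *Sec61a1* and *Calm3*. All missed the threshold without weights, and *Gm20431*, *Gm18180*, *Smoc2*, *Ltbp4*, *Gpc1*, *Cdh1*, *Eef1g* and *Calm3* rose with them. *Smoc2*, a calcium-binding matrix protein gene on chromosome 17 from 14279506 to 14404790, was at 18.7, 14.7 and 24.2 FPKM at D-2 and at 55.8, 35.7 and 46.8 at D0. Its log2 fold change was 1.06 ± 0.28, adjusted p = 0.32, and 1.30 ± 0.23 with weights, adjusted p = 0.0046 (range 0.0046 to 0.98). Even the lowest D0 sample, replicate 2, was above every D-2 sample.

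*Ltbp4*, which binds latent TGF-beta in the matrix, went from 20.7, 32.5 and 37.6 FPKM to 51.5, 85.8 and 47.3, with a log2 fold change of 0.82 ± 0.23. *Gpc1*, a cell surface heparan sulphate proteoglycan, went from 44.0, 63.2 and 65.7 to 86.6, 80.8 and 99.1, with 0.61 ± 0.17. *Cdh1*, the gene of the epithelial adhesion molecule E-cadherin, went from 95.0, 129 and 148 to 188, 165 and 224, with 0.58 ± 0.17. These 3 genes lay without overlap and rose with weights, at log2 fold changes of 1.099, 0.81 and 0.84.

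*Epcam*, the adhesion molecule used for the sort, also rose with weights, although its groups overlapped (117, 127 and 168 FPKM at D-2, 202, 134 and 224 at D0) and its log2 fold change was 0.32 ± 0.24 without them. *Mmp9*, a gelatinase gene, was at 59.8, 44.2 and 57.5 FPKM and then at 117, 69.0 and 102. It was the only one of 22 extracellular matrix genes that rose (0.282% of all genes did), while 4 lay wholly above D-2 (*Col6a1*, *Lamb3*, *Mmp9* and *Sparc*, beside 5.06% of all genes) and 0 below. The translation elongation gene *Eef1g* held 191, 183 and 266 FPKM at D-2 and 385, 278 and 357 at D0. *Sec61a1*, a channel of the endoplasmic reticulum, held 69.4, 60.1 and 64.7 against 91.4, 159 and 74.7, and *Calm3*, a calmodulin gene, 52.1, 64.3 and 58.5 against 76.6, 155 and 73.1. In *Sec61a1* and *Calm3* D0 replicate 2 was the highest sample. Without it the log2 fold changes were 0.53 and 0.73, beside 0.54 and 0.61 with all samples. *Ltbp4*, also highest in that library by FPKM, went from 0.82 to 1.02 without it. Log2 fold changes were fitted on expected counts, so they need not follow the FPKM values listed beside them.

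The remaining higher genes have uncertain counts. *Gm20431* was at 0 in all D-2 samples and at 2.15, 18.0 and 6.36 FPKM at D0, at least 490-fold higher against a floor of 3 counts over the D-2 group and at least 242-fold without D0 replicate 2, but it overlaps *Ube2v1* and *Tmem189* on the same strand, which can share its reads. *Gm18180*, a processed pseudogene, was at 0 in the D-2 samples and at 6.32, 8.45 and 0.52 FPKM at D0, at least 155-fold higher, or 91.3-fold without D0 replicate 2. *Gm43802*, another one, overlaps *Gbp7* on the same strand and was at 3.64, 0 and 0 FPKM and then at 9.66, 44.2 and 11.2. ENSMUSG00000099703.6, which has no entry in GENCODE M21, was at 0 in the D-2 samples and at 17.8, 25.4 and 1.53 at D0, at least 102-fold higher, or 68.0-fold without D0 replicate 2. *Ighm*, the immunoglobulin mu heavy chain gene, was at 6.67, 7.88 and 3.43 FPKM at D-2 and at 57.9, 33.1 and 18.3 at D0. The 8 genes of the B and plasma cell list summed to 30.4 to 38.7 FPKM at D-2 and 36.2 to 91.4 at D0, of which *Ighm* was the largest part at D0, and 1 to 3 of the 8 were listed at 0 in each sample. The part of B-lineage cells in its level was not tested.

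Among genes of mTEC function few passed. Of 11 tested genes that regulate promiscuous expression, 8 had a negative log2 fold change (list median -0.32, and -0.36 without D0 replicate 2). *Aire* was at 113, 150 and 50.1 FPKM against 55.9, 91.3 and 38.8, with overlap, and *Fezf2* at 145, 148 and 121 against 130, 126 and 108. Among 16 tested tissue-restricted genes 9 had a negative value, 2 lay wholly below D-2 (*Tff3* and *Ttr*, beside 7.06% of all genes) and none passed. The list median moved from -0.34 to -0.89 when D0 replicate 2 was left out.

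Costimulatory genes *Cd80* and *Cd86* and the integrin gene *Itgb4* lay wholly below D-2 in the list of 16 maturation genes (7.06% of all genes did). In this list *Epcam* alone passed with weights. *Cd80* was at 19.6, 37.5 and 10.3 FPKM and then at 8.06, 10.1 and 9.99, so that its highest D0 value came just under its lowest D-2 value. The list median was 0.01. Of 15 genes of class I antigen presentation, 10 had a positive log2 fold change (42.7% of all genes did). *Erap1*, *Tap2* and *Tapbp* lay wholly above D-2 (5.06% of all genes did), and 1 gene rose (0.282% of all genes did). The list median was 0.16 (0.19 without D0 replicate 2), and the summed levels of the groups overlapped. *H2-K1*, a class I heavy chain gene, rose with weights, from 1423, 1573 and 1865 FPKM to 2103, 1750 and 2074, although its log2 fold change was only 0.22 ± 0.12 without them and its groups overlapped. The peptide transporter gene *Tap2* and the tapasin gene *Tapbp* had 0.35 ± 0.16 and 0.42 ± 0.18.

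Of 13 class II genes, 5 were positive, 0 passed, and the median of -0.05 became 0.16 without D0 replicate 2. The invariant chain gene *Cd74* was at 5902 ± 508 and 6584 ± 718 FPKM, *H2-Aa* at 3095 ± 284 and 2949 ± 166, and the class II transactivator gene *Ciita* at 61.8, 63.5 and 51.6 against 51.3, 45.0 and 51.9. *Foxn1*, the master transcription factor of TECs, was at 137, 86.6 and 70.1 FPKM and then at 127, 84.8 and 86.6. With its named targets it made a list of 11, 8 positive, 0 passing, with a median of 0.11. *Prss16*, a thymus-specific protease gene better known in the cortex, lay wholly above D-2, at 81.5, 32.3 and 67.6 FPKM against 109, 118 and 120, with a log2 fold change of 0.74 ± 0.43 that did not pass.

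Among 18 chemokine and cytokine genes *Cx3cl1*, a membrane-bound chemokine, rose with weights, from 43.3, 46.8 and 63.4 FPKM to 86.6, 74.4 and 64.3. *Il7*, the growth factor of early thymocytes, was higher without overlap by a narrow margin, at 88.9, 67.3 and 83.5 and then 90.0, 97.0 and 155, and did not pass. *Ccl21a* ranged from 7515 to 13750 in the D-2 samples and from 8667 to 13750 in the D0 samples. The list median was -0.003.

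Terminal keratinised cells were represented by 20 cornified genes, 17 of them negative beside 57.3% of all genes, with a median of -0.40 (-0.49 without D0 replicate 2). *Spink5*, a protease inhibitor of keratinised epithelium, fell, from 30.7, 55.7 and 46.6 FPKM to 14.6, 36.4 and 17.6, with overlap through D0 replicate 2. *Klk7*, *Krt80* and *Pou3f1* lay wholly below D-2, beside 7.06% of all genes, and did not pass, and *Krtdap* overlapped at 117, 205 and 134 against 133, 66.0 and 92.0. Among 9 simple and basal keratin genes 7 were positive, with a list median of 0.17. *Krt8*, *Krt14* and *Krt17* lay wholly above D-2, beside 5.06% of all genes. Tuft genes (17 tested, 8 positive, median -0.13) and intestinal and microfold genes (19 tested, 6 positive, median -0.22) had 0 members that passed.

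**Figure D2:**
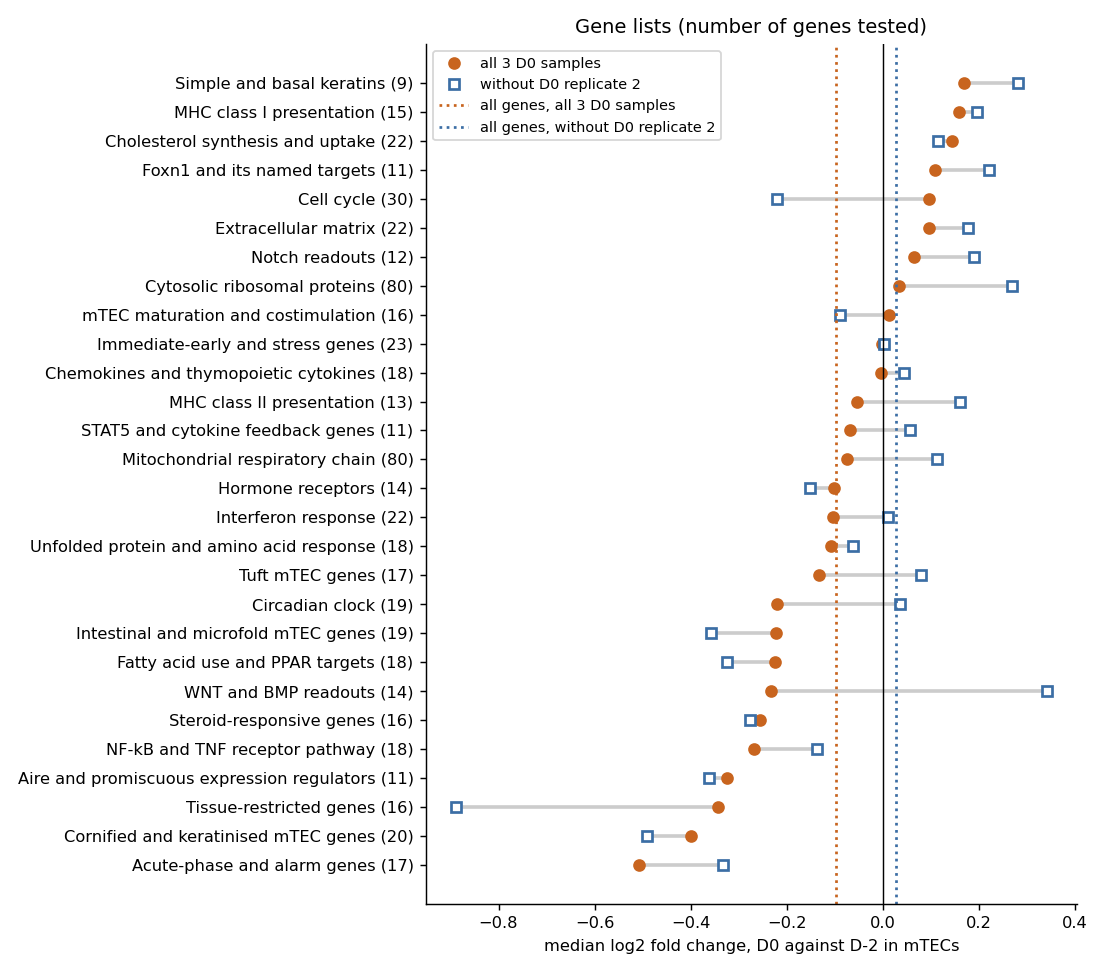
Median log2 fold change of D0 against D-2 in mTECs (x axis) for 28 gene lists (y axis, with the number of genes tested), with all D0 samples (filled) and without D0 replicate 2 (open squares), and dotted lines at the medians of all genes. In both fits 9 lists lie left of both dotted lines, the acute-phase, cornified, tissue-restricted, Aire-related, NF-kB, steroid-responsive, fatty acid, intestinal and microfold, and hormone receptor lists, while the WNT and BMP list moves from -0.23 to 0.34.

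The other lists held single members that passed. In 22 interferon response genes, 16 were negative (median -0.10) and *Rsad2*, an antiviral enzyme gene, fell, from 47.9, 36.5 and 38.0 FPKM to 35.0, 30.0 and 15.0. In 23 immediate-early and stress genes (median -0.002) *Klf4*, a transcription factor of epithelial differentiation, fell, from 335, 326 and 349 to 173, 216 and 123, whereas *Fos* stood at 2264 ± 318 and 2427 ± 516. In 19 clock genes (median -0.22) *Rora* fell, from 30.6, 24.9 and 26.7 to 12.4, 11.0 and 11.1, a gap in which D0 replicate 2 did not stand out. Its log2 fold change was -0.87 ± 0.24 and its adjusted p with weights 0.0018 (range 0.0018 to 1).

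No member passed in 8 further lists. Of 30 cell cycle genes 19 were positive, with a median of 0.10 that became -0.22 without D0 replicate 2 and -0.51 with weights, and *Mki67* was at 9.83, 12.3 and 2.75 FPKM against 3.78, 10.3 and 3.58. Of 18 fatty acid genes 14 were negative (median -0.22), with *Angptl4* at 28.02, 21.6 and 32.9 and then 12.9, 21.5 and 8.74. Cholesterol genes (22 tested, 13 positive, median 0.14), unfolded protein genes (18 tested, 7 positive, median -0.11) and WNT and BMP readouts (14 tested, 4 positive, median -0.23) had 3, 3 and 1 members without overlap. Of all genes, 5.06% lay wholly above and 7.06% wholly below D-2. Of 12 Notch genes 8 were positive (median 0.06). *Hes6* stood higher with overlap, at 88.8, 52.2 and 70.0 and then 179, 88.4 and 132. *Heyl* stood higher without overlap, at 28.3, 25.5 and 23.2 and then 44.4, 36.2 and 46.9. *Hes1* stood lower, at 102, 80.8 and 117 and then 68.5, 76.9 and 77.6. The 80 ribosomal protein genes had a median of 0.03, which became 0.27 without D0 replicate 2, and the 80 respiratory chain genes one of -0.08, which became 0.11.

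Most genes that fell had their highest mean at D-2 among the time points with 3 samples. Over the 6 time points with 3 samples each (NPC, the non-pregnant controls, and D-2, D0, D3, D6 and D12), the D-2 mean was the highest for 194 of the 213 genes (91.1%), against 12.9% of all genes tested. Since these genes were chosen for a D-2 level above D0, this share is a description. The D0 mean lay inside the range of the NPC, D3, D6 and D12 means for 110 of the 213 (51.6%, against 63.3% of all genes). *Upf3b* was at 42.4 ± 19.9 FPKM (SD, n = 3) in NPC mTECs, 149 ± 17.5 at D-2, 61.7 ± 29.1 at D0, 45.2 ± 27.8 at D3 and 43.6 ± 6.85 at D12. *Klf9* was at 39.4 ± 5.66, 132 ± 36.8, 62.1 ± 13.4, 45.4 ± 20.4 and 44.4 ± 2.75 at the same points. In both genes the D0 mean lay below the D-2 mean and above each of the other means given.

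*Nfkbia* followed the same order, with 788 ± 206 FPKM in NPC, 2156 ± 541 at D-2, 1132 ± 457 at D0 and 742 ± 339 at D3. *Serpina3n* had lower means still at D3 and D6, at 36.6, 121, 49.5, 19.7, 18.4 and 34.9 FPKM from NPC through D-2, D0, D3 and D6 to D12. Among the 50 genes that rose, the D-2 mean was the lowest for 38 (76%, against 16.9% of all genes) and the D0 mean the highest for 19 (38%, against 14.9%). As these genes were chosen for a D-2 level below D0, both shares are descriptions. *Smoc2* was highest at D0, with means of 22.8, 19.2, 46.1, 35.3, 18.9 and 16.9 FPKM at those points, whereas *Gpc1* had 71.3 ± 11.7 in NPC, 57.6 ± 11.9 at D-2 and 88.8 ± 9.35 at D0 and stayed at 85.4 ± 11.7 at D3.

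**Figure D3:**
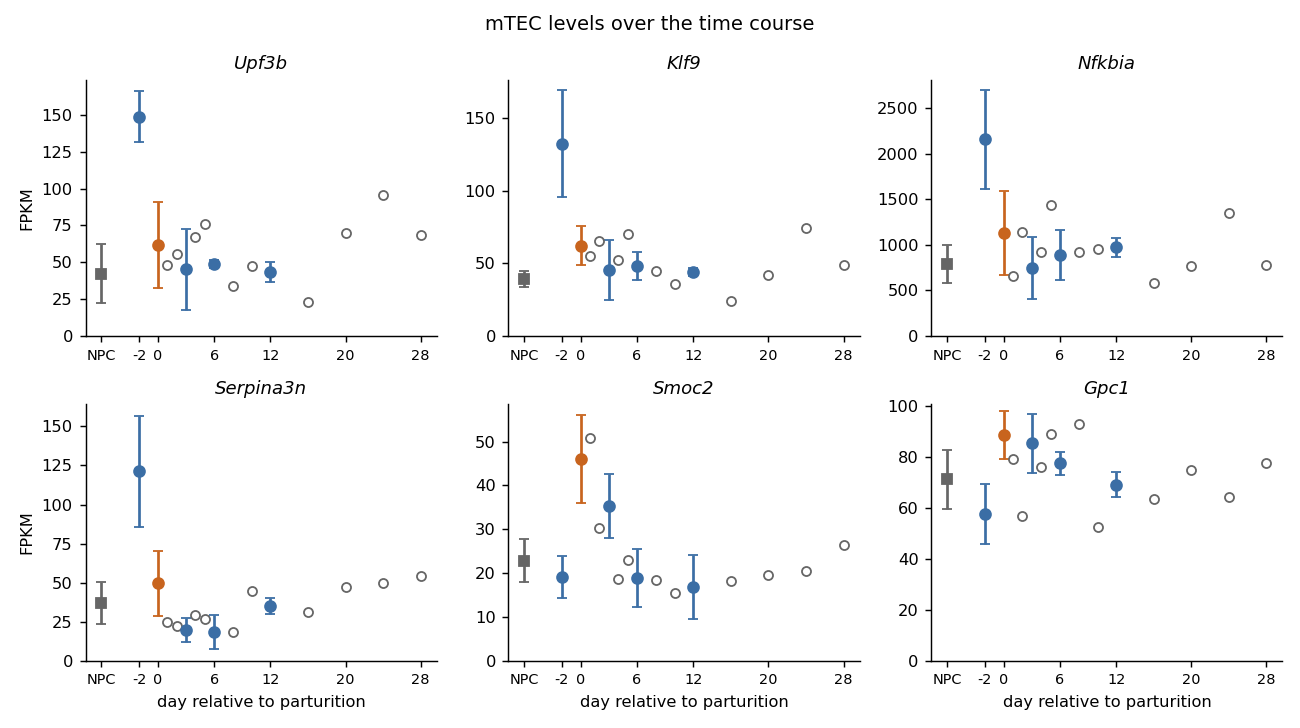
FPKM in mTECs (y axes, from 0) of 6 genes by day relative to parturition (x axes), as mean ± SD of 3 samples at D-2, D3, D6 and D12 (blue), D0 (orange) and in non-pregnant controls (grey square), and as open circles at time points with 1 sample. *Upf3b*, *Klf9*, *Nfkbia* and *Serpina3n* have their highest mean at D-2, and *Smoc2* has its highest triplicate mean at D0, 46.1 FPKM.

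Cortical cells (cTECs), sorted as UEA1- cells, were sampled at D0 and D-2 in the same way and gave an independent set of libraries, though equally numbered samples of both cell types may come from the same mice. No gene passed the test there either (0 of 15845, with 623 at an unadjusted p under 0.05). Of the 213 genes that fell in mTECs, 204 were tested in cTECs and 172 (84.3%) were lower at D0 there too, against 48.3% of all genes tested in both, with a median log2 fold change of -0.24 beside 0.02. The cTEC mean at D-2 was the highest of the 6 time points for 54.4% of them, against 19.1% of all. Of the 50 that rose, 49 were tested and 37 (75.5%) were higher in cTECs, against 51.7% of all, with a median of 0.15. In mTECs the medians of the lower and the higher genes were -0.81 and 0.54. What the mice, their handling and the libraries of a time point share between both cell types cannot be told apart from the time point itself.

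*Serpina3n* had the same size in both cell types. Its cTEC levels were 178, 175 and 239 FPKM at D-2 and 52.6, 107 and 50.1 at D0, a log2 fold change of -1.58 ± 0.28 beside -1.45 ± 0.32 in mTECs. *Gpc1* went from 35.0, 42.9 and 38.0 FPKM to 75.5, 66.5 and 84.4 in cTECs, with 0.88 ± 0.15 and the lowest adjusted p of that comparison, 0.13. *Upf3b*, in contrast, was at 26.6, 33.4 and 70.4 FPKM and then at 54.4, 37.3 and 42.6 in cTECs, with overlap. *Smoc2* and *Ltbp4* had cTEC log2 fold changes of 0.17 ± 0.29 and -0.03 ± 0.26.

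A test of the difference between cell types called 0 of 18394 genes (0%), with 671 at an unadjusted p under 0.05, so none of these contrasts between mTECs and cTECs was shown to differ. edgeR called 0 as well, with 350 at an unadjusted p under 0.05. With sample quality weights 1 gene passed, *Srsf11*, with a difference of -1.21 on the log2 scale and an adjusted p of 0.0068 (0.28 to 1 for the lowest gene in the other settings).

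**Figure D4:**
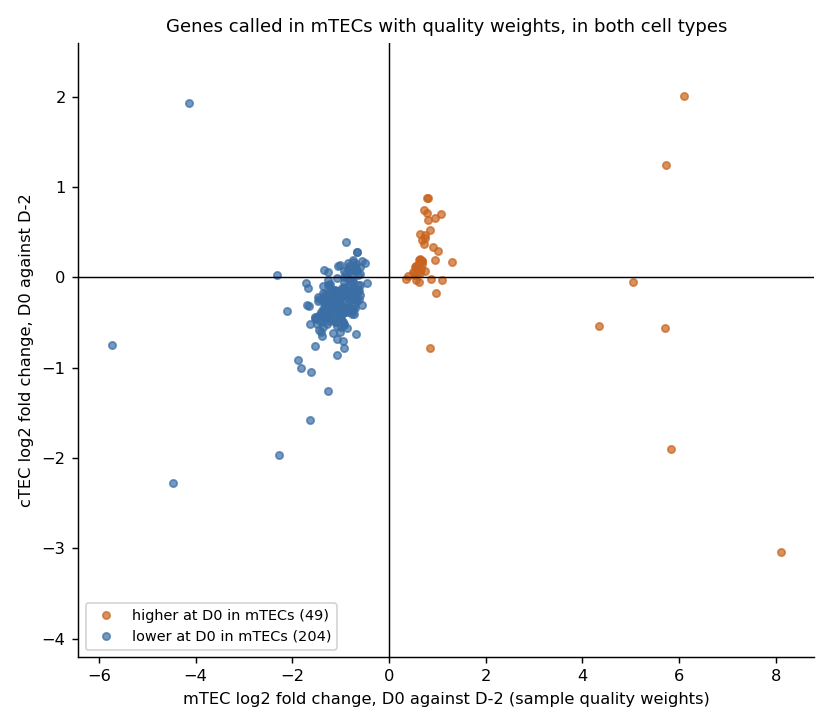
log2 fold change of D0 against D-2 in mTECs with sample quality weights (x axis) and in cTECs (y axis) for the genes that passed in mTECs and were tested in both, 204 lower (blue) and 49 higher (orange). Most blue points lie below 0 on the y axis (172) and most orange points above it (37).

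Markers of other cells that the gate could hold were followed as lists. Summed over the list, the 20 thymocyte genes were at 37.6 to 54.2 FPKM at D-2 and 39.7 to 53.6 at D0, with 2 to 10 and 1 to 10 genes listed at 0 and the CD45 gene *Ptprc* at 0.35 to 2.04 over the 6 samples. The 16 macrophage and dendritic cell genes summed to 76.8 to 120 and 80.8 to 149, the 8 neutrophil genes to 132 to 156 and 79.4 to 196, and the 7 erythroid genes to 16.6 to 27.9 and 9.56 to 79.1. In these last 3 lists the highest sum was that of D0 replicate 2. The 8 endothelial genes summed to 4.25 to 7.77 and 3.46 to 10.8. The 9 fibroblast and pericyte genes summed to 288 to 386 FPKM at D-2 and 390 to 432 at D0, without overlap. Within that list *Acta2*, smooth muscle actin, rose with weights, from 98.3, 114 and 142 to 230, 159 and 227. *Pdgfra* also lay wholly above D-2 (5.06% of all genes did), at 0.16 to 0.25 and 0.51 to 2.63. The other 7 genes overlapped, among them *Dcn* at 101 to 152 and 96.4 to 128 and *Col1a1* at 4.26 to 12.7 and 2.69 to 10.9, and the list median was -0.30. The 8 cTEC markers summed to 559 to 1140 and 730 to 1120. In bulk samples a change in the share of a cell type and a change in RNA per cell cannot be told apart, and the part of these cells in the values above was not tested.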

How the data were processed

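Poly-A RNA of mTECs from 1 mouse per replicate was sequenced. Per the labels, the authors trimmed the reads, used STAR for alignment to GRCm38 and RSEM for quantification (annotation release not given in the sources used here), and deposited per sample the expected count, which is not normalized, and FPKM, scaled by gene length and fragments. Symbols and coordinates came from GENCODE M21.

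Expected counts were rounded and fitted with limma 3.58.1 (voom, TMM factors of edgeR 4.0.16, R 4.3.3) over all 28 mTEC samples with 1 mean per time point, for genes whose mean was 0.5 FPKM or more. P-values were adjusted by Benjamini-Hochberg. Calls needed a fold-change of 2 and an adjusted p of 0.01, and single genes and lists 0.05. The plan set the fit without weights for single genes and list members, whereas the text uses the fit with quality weights for them. The difference between cell types was an interaction in all 56 samples. Alternatives were edgeR, DESeq2 1.42.0, sample quality weights (arrayWeights within voom), other scalings, filters and samples, and limma-trend on log2(FPKM + 0.5) or log2(FPKM + 0.1). Tests were checked on simulated counts with the same spread for all genes and no noisier library. That check therefore does not cover how a library such as D0 replicate 2 affects the weighted calls. ± after FPKM is the SD, after fold changes the SE.

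The comparison, its lists and markers were chosen with earlier results of these data known. The rule named 12 higher and 12 lower genes at an adjusted p of 0.05 with a mean of at least 5 FPKM in the higher group and no overlap, and filled empty places by the smallest p. As none passed, all 24 places were filled so. List members that passed, the most abundant members, and *Foxn1*, *Aire*, *Fezf2*, *Pgr*, *Nr3c1*, *Ciita*, *Mki67*, *Prss16* and *Serpina3n* were also named, and some genes that met this rule are not reported here. Genes such as *Srsf11*, *Rbm25*, *Son*, *Luc7l3* and *Malat1*, and list members named only for lying without overlap, were chosen after their values were seen.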

Additional observations from a re-analysis of the deposited data

How the results depend on the processing

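The 0 calls of D0 against D-2 at a fold-change of 2 and an adjusted p of 0.01 stayed 0 under edgeR, no TMM scaling, RLE factors, the fit of 6 samples, other filters, limma-trend and an adjusted p of 0.01 without a fold threshold. They became 13 with DESeq2 and 78 with sample quality weights. At an adjusted p of 0.05 the 0 became 23 with DESeq2 and 263 with quality weights. It became 5 without a filter on low FPKM and 1 with log2(FPKM + 0.5) (*Gm7831*). The 5 genes, named after their values were seen, were *Prpf8*, *Actb* and *Eef1a1* with positive and *mt-Cytb* and *Gm28661* with negative log2 fold changes. Only *Prpf8* lay without overlap in FPKM. *mt-Cytb* was at 3108, 3739 and 3169 FPKM at D-2 and at 2297, 3899 and 4216 at D0, although its log2 fold change was -0.46. Leaving out 1 library at a time gave 0 at the stricter threshold and 0 to 1 at 0.05, the 1 being *Srsf11* without D0 replicate 2. For the difference between mTECs and cTECs the 0 calls became 1 with quality weights and stayed 0 otherwise. The causes were not tested.

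Settings chosen after seeing the data gave these counts. Quality weights without D0 replicate 2, D-2 replicate 1, D-2 replicate 2 or D-2 replicate 3 gave 57, 4, 53 or 85 calls at the stricter threshold and 219, 56, 195 or 315 at 0.05, and without D0 replicate 1 or 3 gave 0 at both. The 5 samples without D0 replicate 2 gave 3 and 69, and quality weights in the 6 samples 0 and 64.

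Since each replicate was 1 mouse, equally numbered D0 and D-2 samples come from different mice. Their deviations correlated at -0.0029 to 0.053, where 2 of the 3 numbers are the same in the titles. Between mTECs and cTECs, deviations of equally numbered samples correlated at 0.0065 to 0.084 at D0 and at 0.0063 to 0.046 at D-2. The labels do not say whether these share mice. With a replicate block the counts of calls stayed 0, for the difference between cell types too. In D0 against D-2 this block joined different mice by replicate number only, so that 0 cannot show how firm the result is. Of 62 genes whose log2 fold change was followed over 25 settings, 0 changed direction, and 16 passed in none.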
